A study of Homo sapiens with 9 samples.

Results

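The 10 tubulin genes TUBA1A, TUBA1B, TUBA1C, TUBA4A, TUBB, TUBB2A, TUBB3, TUBB4B, TUBB6 and TUBG1 were followed in the established breast cancer line MDA-MB-231, which is classed as triple-negative. They were chosen by name with earlier results of these data known, and they are 10 of the 27615 genes listed in at least 1 library. Polyadenylated RNA was sequenced after treatment with DMSO (vehicle), with rimonabant, an antagonist of the cannabinoid receptor CB1, or with TXX-1-10, a compound derived from rimonabant. Each treatment had 3 libraries, all from the same unmodified line. The dose and the duration of treatment of the sequenced cells were not given in the sources used here, and no source said that the 3 libraries came from separate cultures, so p-values measure the spread between these libraries. For each library the deposited list gives reads counted per gene and FPKM, the count scaled by gene model length and by the library total.

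The library totals behind FPKM were 17078370 to 17245379 in vehicle, 17477838 to 18813662 in rimonabant and 18394759 to 19277808 in TXX-1-10. Which reads they hold was not given, and the listed counts of vehicle 1 summed to 17492639, above its total of 17078370. The lists are ordered by falling counts and, as used here, stop at different genes, so a gene without a line is not a gene at 0. Of the tubulins, 8 were listed in all 9 libraries, TUBB2A was listed in all but rimonabant 1, and TUBB3 was listed in 5. In vehicle, the mesenchymal marker VIM stood at 274 to 284 FPKM. The epithelial cadherin CDH1 had 0 reads in the single vehicle library that listed it, and the hormone receptor genes ESR1 and PGR had 3 and 9 reads there. ERBB2, the gene of the receptor HER2, was low but present at 9.18 to 9.52 FPKM. In rimonabant 1 and TXX-1-10 3, longer genes had fewer counts than in their sister libraries (Spearman rho with length -0.693 and -0.692 across genes). Each rho compares a library with the mean of its sisters. The values of 0.477 to 0.667 in the sister libraries thus in part mirror the same trend. Tubulin calls that depend on rimonabant 1 or TXX-1-10 3 are given with and without them.

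Microtubules are hollow polymers of dimers that each join an alpha-tubulin and a beta-tubulin. They carry cargo, shape the cell and form the mitotic spindle, which makes them a target of the taxanes and vinca alkaloids used in breast cancer. Gamma-tubulin does not enter the polymer wall but sits in ring complexes that start new microtubules at centrosomes. Cells also sense their free tubulin dimers: when dimers are in excess, the factor TTC5 recognises the first amino acids of a nascent alpha- or beta-tubulin chain on the ribosome, and the mRNA being translated is degraded.

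Because that sensing reads the start of the chain, the first 30 coding bases of 7 of the genes are shown, from GENCODE release 29 on GRCh38, with the first 12 bases (methionine and the next 3 codons) in capitals.
TUBA1A: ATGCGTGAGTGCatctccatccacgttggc
TUBA1B: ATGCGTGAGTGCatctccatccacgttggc
TUBA4A: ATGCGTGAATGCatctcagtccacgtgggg
TUBB: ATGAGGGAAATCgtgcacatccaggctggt
TUBB2A: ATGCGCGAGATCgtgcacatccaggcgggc
TUBB6: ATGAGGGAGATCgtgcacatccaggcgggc
TUBG1: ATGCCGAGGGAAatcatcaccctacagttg
TUBA1A and TUBA1B share all 30 bases, and so does TUBA1C, which is not shown. TUBA4A, TUBB2A and TUBB6 begin with other codons for the same amino acids as their alpha or beta relatives, and TUBG1 begins with a different peptide. These openings are set beside the changes of each gene below.

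Over the whole coding sequence TUBA1A and TUBA1B were 97.2% identical, and TUBA1B and TUBA1C were 96.8% identical.

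In vehicle, TUBB was the highest of the 10, at 489 ± 3.73 FPKM (SD, n = 3), followed by TUBB4B, TUBA1B, TUBA1C, TUBG1, TUBB6, TUBA4A, TUBA1A and TUBB2A at 13.8 ± 0.551. No neighbours in that order overlapped between libraries. With rimonabant, TUBA1A stood above TUBA4A, and the TUBA4A and TUBB2A libraries overlapped. With TXX-1-10, TUBB4B (157 ± 14.02 FPKM) and TUBB (151 ± 9.004) overlapped at the top, and TUBA4A (6.23 ± 0.902) stood below TUBA1A and TUBB2A. TUBB3, a beta-tubulin best known from neurons, had 17 and 8 reads in vehicle 1 and 3, 27 in rimonabant 3, and 30 and 23 in TXX-1-10 2 and 3. These counts are too low and too often missing to compare treatments, and 89.4% of the 50-base windows of its transcript also occur in the overlapping gene AC092143.1, so TUBB3 was not tested.

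**Figure D1:**
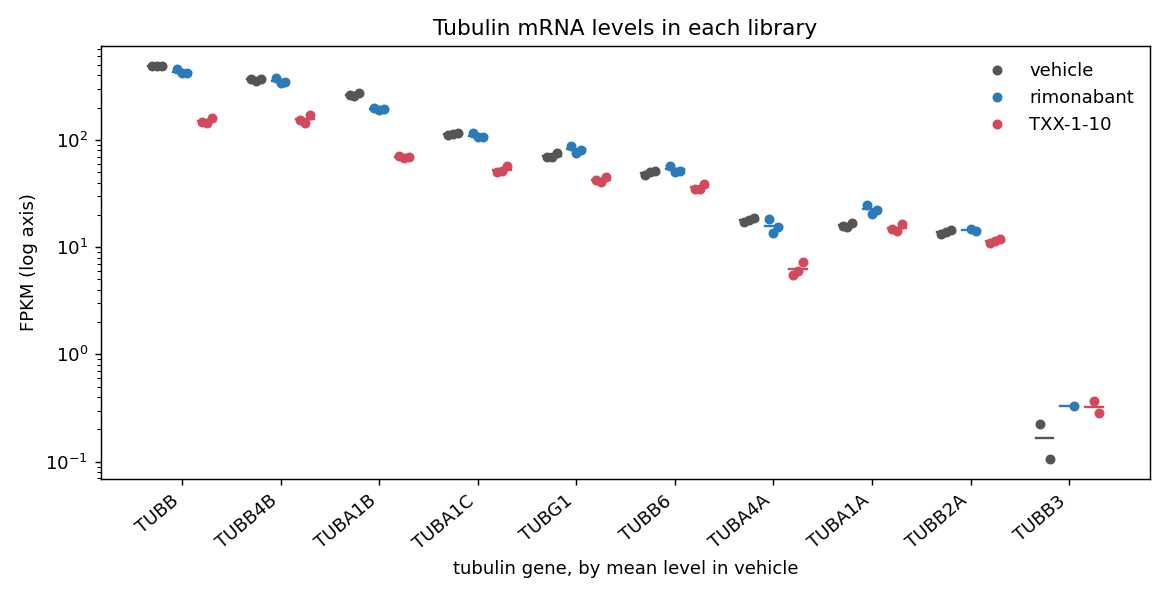
FPKM of each tubulin gene on a log axis, with 1 point per library that lists the gene and a short line at the mean of each treatment. Genes are ordered by their vehicle mean; the TXX-1-10 points lie below all vehicle points for TUBB, TUBB4B, TUBA1B, TUBA1C, TUBG1, TUBB6, TUBA4A and TUBB2A and overlap them for TUBA1A.

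TXX-1-10 lowered most tubulin mRNAs. Of the 8 tubulins listed in all 9 libraries, 5 changed downwards against vehicle, where a changed gene has a log2 fold change of 1 or more in size and an adjusted p under 0.05 by edgeR's quasi-likelihood test with Benjamini-Hochberg adjustment over the 4237 genes tested. Among all genes tested, 7.6% changed downwards. At any fold size 7 of the 8 were lower at an adjusted p under 0.05, where 43.9% of all genes tested were. TUBB2A, from a fit of the 8 libraries that list it, was lower too, against 40.6% of the 9370 genes of that fit. The median log2 fold change of the 9 tested tubulins was -1.12, and that of all genes in the 9-library fit was -0.09. In bulk RNA, less mRNA in every cell and fewer cells with much of it cannot be told apart.

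TUBA1B, an alpha-tubulin abundant in dividing cells, had the largest fall. Its level was 260.1, 255 and 273 FPKM in vehicle, 198, 189.7 and 196 in rimonabant, and 70.2, 67.9 and 68.7 in TXX-1-10. The treatments did not overlap, with rimonabant between the other two. Against vehicle the log2 fold change was -1.93 ± 0.049 (SE) with TXX-1-10, a level 73.8% lower (edgeR adjusted p = 5.942e-10), and -0.44 ± 0.047 with rimonabant (edgeR adjusted p = 5.809e-05). The gene lies on chromosome 12 of GRCh38, at chr12:49127782-49131397 on the minus strand.

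TUBA1C, a ubiquitous alpha-tubulin, was at 112, 115 and 117 FPKM in vehicle, 116, 105 and 106 in rimonabant, and 50.1, 51.0 and 57.2 in TXX-1-10. Only the TXX-1-10 libraries stood apart. The log2 fold change against vehicle was -1.12 ± 0.064 with TXX-1-10 (edgeR adjusted p = 1.145e-07) and -0.07 with rimonabant (95% interval -0.21 to 0.07).

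TUBA4A, an alpha-tubulin whose gene lies apart from the chromosome 12 cluster, on chromosome 2, was at 17.0, 17.9 and 18.8 FPKM in vehicle, 18.2, 13.5 and 15.3 in rimonabant, and 5.48, 5.98 and 7.23 in TXX-1-10. With TXX-1-10 all libraries were lower than any other. The log2 fold change against vehicle was -1.53 ± 0.125 (edgeR adjusted p = 1.542e-06). With rimonabant it was -0.20 (edgeR adjusted p = 0.1921), and -0.32 (edgeR adjusted p = 0.02628) without rimonabant 1.

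TUBA1A, the alpha-tubulin prominent in developing neurons, went another way. Its level was 15.7, 15.4 and 16.9 FPKM in vehicle, 24.8, 20.2 and 22.4 in rimonabant, and 14.8, 14.2 and 16.4 in TXX-1-10. Every rimonabant library was above every other, whereas vehicle and TXX-1-10 overlapped. With rimonabant TUBA1A rose by a log2 fold change of 0.49 ± 0.084 (edgeR adjusted p = 0.0009861). With TXX-1-10 the value was -0.08 (95% interval -0.27 to 0.11, edgeR adjusted p = 0.3953), it turned to 0.01 with TMM and 0.02 with DESeq2 scaling, and it was -0.14 (edgeR adjusted p = 0.0344) without rimonabant 1 and TXX-1-10 3. TUBA1A has the same first 30 coding bases as TUBA1B and TUBA1C. Its interval under TXX-1-10 lay entirely above those of TUBA1B, -2.04 to -1.82, and TUBA1C, -1.26 to -0.97. Decay of mRNA was not measured, and a part of the sensing pathway in these changes was not tested.

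Among the beta-tubulins TUBB, the most abundant, was at 492, 489 and 485 FPKM in vehicle, 459, 421 and 418 in rimonabant, and 148, 144 and 161 in TXX-1-10. The 3 treatments did not overlap. TXX-1-10 lowered it by a log2 fold change of -1.69 ± 0.062, a level 69.1% lower (edgeR adjusted p = 5.056e-09). With rimonabant the log2 fold change was -0.18 ± 0.061 (edgeR adjusted p = 0.03605). That smaller call was lost on leaving out any of vehicle 1, 2 and 3, rimonabant 2 and 3 or TXX-1-10 1, with edgeR adjusted p-values of 0.09534, 0.09639, 0.07796, 0.1004, 0.124 and 0.05701.

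TUBB4B, a beta-tubulin of most tissues and of cilia, was at 370.0, 358 and 371 FPKM in vehicle, 381, 337 and 345 in rimonabant, and 154, 144 and 172 in TXX-1-10. The rimonabant libraries spread around those of vehicle, and those of TXX-1-10 lay far below. The log2 fold change was -1.23 ± 0.074 with TXX-1-10 (edgeR adjusted p = 1.557e-07) and -0.05 with rimonabant (95% interval -0.21 to 0.11).

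TUBB6, a beta-tubulin of most tissues that is linked to less stable microtubules, fell much less. It was at 47.6, 50.4 and 51.0 FPKM in vehicle, 57.5, 50.1 and 51.4 in rimonabant, and 34.7, 35.2 and 38.4 in TXX-1-10. The TXX-1-10 libraries were again all below the rest. The log2 fold change was -0.46 ± 0.064 with TXX-1-10 (edgeR adjusted p = 8.857e-05) and 0.09 with rimonabant (95% interval -0.05 to 0.24).

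TUBB2A, a beta-tubulin with much of its expression in brain, was at 13.2, 13.8 and 14.3 FPKM in vehicle, 14.8 and 14.1 in the 2 rimonabant libraries that list it, and 10.8, 11.5 and 11.9 in TXX-1-10. Its log2 fold change with TXX-1-10 was -0.28 ± 0.074 (edgeR adjusted p = 0.004784), and with a correction for gene length it was -0.15 (edgeR adjusted p = 0.09761). With rimonabant the value was 0.07 (95% interval -0.11 to 0.24). Of its 50-base windows 60.3% also occur in TUBB2B, which had 12 to 34 reads in the 6 libraries that list it, against 361 to 482 reads for TUBB2A.

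The gamma-tubulin gene TUBG1, which nucleates microtubules, was at 69.0, 69.7 and 75.4 FPKM in vehicle, 87.4, 76.1 and 80.7 in rimonabant, and 41.9, 40.7 and 45.1 in TXX-1-10. Here too the 3 treatments did not overlap, with rimonabant highest. The log2 fold change was -0.74 ± 0.066 with TXX-1-10 (edgeR adjusted p = 2.81e-06) and 0.19 ± 0.065 with rimonabant (edgeR adjusted p = 0.03334). The rimonabant call was lost without vehicle 1, vehicle 2, rimonabant 1 or rimonabant 3, with edgeR adjusted p-values of 0.1091, 0.1088, 0.09365 and 0.07338. Its close relative TUBG2, with which TUBG1 shares 29.1% of its 50-base windows, rose with TXX-1-10, by a log2 fold change of 0.35 ± 0.073 (edgeR adjusted p = 0.0008917, 8 libraries).

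By edgeR, rimonabant changed 0 of the 9 tested tubulins at the fold threshold, which 1.13% of all genes passed in either direction. DESeq2 and limma gave 0 as well, and 4 tubulins had an unadjusted p under 0.05. At any fold size TUBA1B and TUBB were lower and TUBA1A and TUBG1 were higher at an edgeR adjusted p under 0.05, that is 2 of 8 in each direction, where 25.3% of all genes tested were lower and 23.6% were higher. Those shares are close to the background. The median log2 fold change of the 9 tested tubulins was -0.05, and that of all genes was -0.02. Without rimonabant 1 and TXX-1-10 3 the lower count was 5, with TUBA1C, TUBA4A and TUBB4B added, and the share of all genes that were lower was 38%.

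Rimonabant and the compound derived from it were then compared directly, as 1 pair at doses that were not given. TXX-1-10 was lower for all 8 tubulins of the 9-library fit at an edgeR adjusted p under 0.05, where 39.4% of all genes tested were, and 5 changed by the threshold, where 4.34% did. The log2 difference was -1.52 ± 0.062 for TUBB (edgeR adjusted p = 2.748e-08), -1.49 ± 0.048 for TUBA1B (edgeR adjusted p = 6.014e-09) and -1.33 ± 0.125 for TUBA4A. It was -1.18 for TUBB4B and -1.05 for TUBA1C, which was -0.95 and so inside the fold threshold with TMM and DESeq2 scaling. In the 8-library fit, without rimonabant 1, TUBA1C was at -0.9998 and so inside the threshold as well. TUBG1, TUBA1A and TUBB6 differed by -0.94, -0.57 and -0.55. For TUBB2A the value from 8 libraries was -0.34 (edgeR adjusted p = 0.003078). For TUBA1A the rimonabant libraries were above both other treatments. Across all genes of this comparison 1668 were lower and 1065 higher, and with TMM scaling 1348 were lower and 1381 higher.

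**Figure D2:**
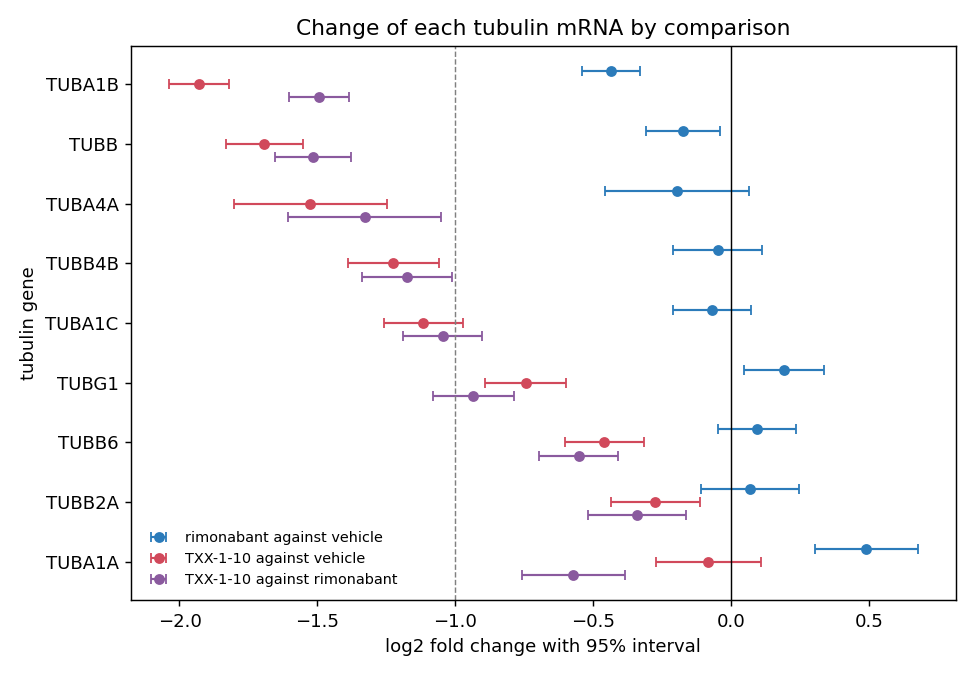
Log2 fold change of the 9 tested tubulin genes (points) with 95% intervals (bars) for each comparison; TUBB2A comes from 8 libraries and the others from 9, and the dashed line marks the fold threshold of -1. The points of TUBA1B, TUBB, TUBA4A, TUBB4B and TUBA1C lie beyond it for TXX-1-10 against both vehicle and rimonabant, though both TUBA1C intervals cross it. The values of rimonabant against vehicle lie between -0.44 and 0.49.

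The genes fell by unequal amounts, so the make-up of the tubulin mRNA pool differed between treatments. Shares were taken over summed FPKM and are given as a description. The 4 alpha-tubulin genes summed to 411 ± 12.8 FPKM in vehicle, 341 ± 13.96 in rimonabant and 143 ± 5.60 in TXX-1-10 (n = 3 each), which is 65.2% below vehicle with TXX-1-10. TUBB, TUBB4B and TUBB6 together summed to 905 ± 7.08, 840 ± 49.8 and 344 ± 24.8 FPKM, which is 62.0% below vehicle. The beta sum thus remained above the alpha sum in every treatment. The study's methods describe only uniquely mapped reads for its expression values, and no source used here says so for the deposited counts. Fewer 50-base windows are found in no other gene for TUBA1B (37.3%) than for TUBB (81.8%). The part of this in the levels of alpha against beta was not tested. Counted as reads, the 8 tubulins took 0.434% to 0.446% of the library total in vehicle, 0.381% to 0.419% in rimonabant and 0.158% to 0.177% in TXX-1-10.

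TUBA1B made up 64.3%, 63.3% and 64.1% of the alpha sum in vehicle, 55.4%, 57.7% and 57.7% in rimonabant, and 49.97%, 48.8% and 45.96% in TXX-1-10. TUBA1A made up 3.89%, 3.82% and 3.96% in vehicle, 6.96%, 6.14% and 6.62% in rimonabant, and 10.50%, 10.2% and 10.96% in TXX-1-10. TUBA1C made up 27.8% ± 0.502 in vehicle and 36.9% ± 1.31 in TXX-1-10. In these 3 genes the treatments did not overlap, and the rimonabant share lay between the others. As parts of the same sum, these shares are not separate observations. TUBA4A had 4.36% ± 0.129 in vehicle and 4.35% ± 0.471 in TXX-1-10.

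Of the beta sum, TUBB made up 54.0% ± 0.528 in vehicle, 51.6% ± 0.516 in rimonabant and 44.0% ± 0.571 in TXX-1-10. TUBB4B made up 40.5% ± 0.542, 42.1% ± 0.418 and 45.5% ± 0.867. It stood below TUBB in every vehicle library, while in TXX-1-10 it was above TUBB in 2 libraries and level with it in TXX-1-10 2 (44.55% against 44.57%). From counts without division by gene length, TUBB4B stayed below TUBB in TXX-1-10 as well (33.5% ± 0.790 against 51.5% ± 0.444). TUBB6 made up 5.49% ± 0.227, 6.30% ± 0.104 and 10.50% ± 0.328. For each of these 3 genes the libraries of the 3 treatments did not overlap. The shares are parts of the same sum, so they are not separate observations.

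**Figure D3:**
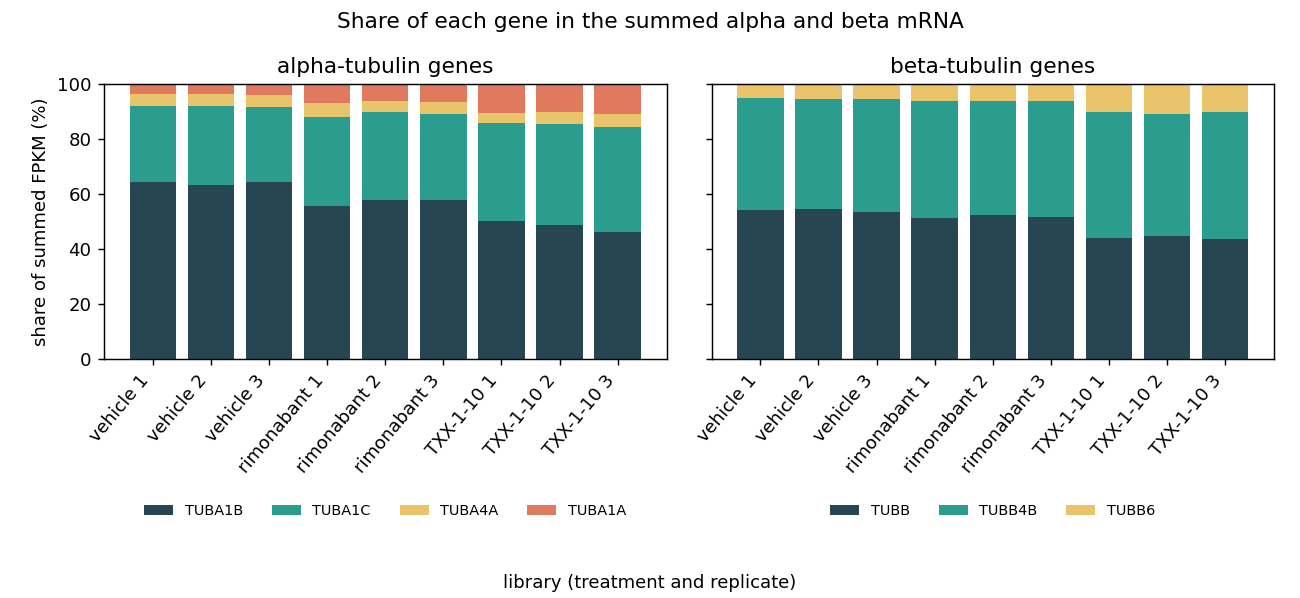
Share of each gene (% of summed FPKM) in the alpha-tubulin mRNA (left) and in the mRNA of TUBB, TUBB4B and TUBB6 (right), with 1 stacked bar per library. TUBA1B goes from 63.3% to 64.3% in vehicle to 45.96% to 49.97% in TXX-1-10, and TUBB6 from 5.23% to 5.62% to 10.3% to 10.9%.

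The genes that work on tubulin were taken in 7 lists and counted in the 8-library fit, where 40.6% of the 9370 genes were lower with TXX-1-10 against vehicle and 34.7% were higher at an edgeR adjusted p under 0.05. The median log2 fold change of all genes there was -0.04. Genes named with a value below passed that test with TXX-1-10 unless said otherwise.

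Newly made tubulin is delivered by prefoldin to the CCT chaperonin and joined into dimers by the cofactors TBCA to TBCE. Of these 21 genes 13 were lower and 4 were higher, with a median log2 fold change of -0.29. TBCD, the cofactor that binds beta-tubulin, fell by a log2 fold change of -0.82 ± 0.048, and the chaperonin subunit CCT7 was at -0.65 ± 0.057. TBCEL, a relative of TBCE that takes dimers apart, rose by 0.996 ± 0.069, and TBCC, which completes dimer assembly, rose by 0.64 ± 0.064. With rimonabant 3 of the 21 were lower and 1 was higher, where 22.8% of all genes were lower and 23.7% higher. Without TXX-1-10 3 these counts were 10 and 3, against 31% and 30.9% of all genes, and with the gene length correction they were 9 and 3, against 26.1% and 27.2%, so the rimonabant counts of this list depend on the fit.

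Around TUBG1, the gamma-tubulin ring complex with its recruiting proteins had 19 tested members. Of these 17 were lower with TXX-1-10 and 0 were higher by edgeR (0 also at an unadjusted p under 0.05, and 0 by DESeq2), with a median of -0.70. With the gene length correction, or without TXX-1-10 3, 1 was higher. HAUS8, a subunit of the augmin complex that branches spindle microtubules, was at -1.72 ± 0.095, and the small ring subunit MZT1 was at -1.16 ± 0.067. The ring subunits TUBGCP5 and TUBGCP3 followed at -0.98 ± 0.089 and -0.86 ± 0.061. Against rimonabant 17 of the 19 were lower as well, where 33.9% of all genes were. Rimonabant against vehicle gave 7 lower and 1 higher, where 22.8% of all genes were lower and 23.7% higher. The lower count was 4 without vehicle 1 or vehicle 2 and 3 without vehicle 3, rimonabant 2 or rimonabant 3, and the higher count was 0 without any of these 5 libraries, 2 without TXX-1-10 2 and 3 without TXX-1-10 3. The counts over all 9370 genes moved as well. In the 5 fits the lower ones went from 2135 to between 1383 and 1812, and the higher ones from 2225 to between 1469 and 1895. Without TXX-1-10 2 and TXX-1-10 3 the higher ones were 2268 and 2899.

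Among 16 tested stabilisers and plus-end proteins 11 were lower and 5 were higher with TXX-1-10, with a median of -0.37 (9 were lower with TMM or DESeq2 scaling). The spindle protein TACC3 was at -1.69 ± 0.055 and its partner CKAP5, a microtubule polymerase, at -1.14 ± 0.074. CLIP2, a plus-end binding protein, was higher at 1.09 ± 0.070, and MAP7D3, which binds along microtubules and recruits kinesin, was at -1.001 ± 0.057. Of 7 tested destabilisers and severing enzymes 4 were lower and 1 was higher. The higher one was SPAST, the severing enzyme spastin, at 0.23 ± 0.087, and its call was lost without vehicle 2, vehicle 3 or TXX-1-10 3 (edgeR adjusted p = 0.06733, 0.1055 and 0.08824). Among the lower were STMN1, which sequesters dimers (-1.15 ± 0.068), and KATNAL1 and FIGNL1, from a class of severing ATPases (-0.69 and -0.47).

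The enzymes that modify tubulin tails and lysines were mixed, with 5 of 12 lower and 2 higher. TTLL11, which lengthens polyglutamate chains on tails, was at -1.68 ± 0.124 with TXX-1-10 and also at -0.96 with rimonabant (edgeR adjusted p = 0.000136). TTLL12 was at -0.85 ± 0.068. TTLL3, a glycylating enzyme, was higher at 0.95 ± 0.077, and the deacetylase SIRT2 was higher at 0.60 ± 0.066.

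None of the 3 genes of the sensing pathway passed the test with TXX-1-10 against vehicle, except that CNOT11 did with the gene length correction (0.13, edgeR adjusted p = 0.03227). TTC5, which reads the nascent chain, was at 0.01 ± 0.092, SCAPER, which links it to the deadenylase, at -0.18 ± 0.129, and CNOT11, the deadenylase subunit, at 0.06 ± 0.062 (edgeR adjusted p = 0.9042, 0.2276 and 0.375). Directly against rimonabant, TXX-1-10 was lower for 2 of the 3, where 33.9% of all genes were. These were TTC5 at -0.34 and SCAPER at -0.48 (edgeR adjusted p = 0.01019 and 0.009947). Without rimonabant 2 a single rimonabant library was left, and the values were -0.28 and -0.41. With rimonabant against vehicle TTC5 was higher at 0.36 (edgeR adjusted p = 0.01242). Without rimonabant 2 it was 0.30, again from a single rimonabant library, which is too few for a call. Without TXX-1-10 3 all 3 genes passed as higher, where 30.9% of all genes did. With the gene length correction all 3 passed as well, where 27.2% of all genes did.

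Of the 12 other tubulin genes 2 could be tested. TUBE1, the centriole epsilon-tubulin, rose with TXX-1-10 by 0.66 ± 0.074 and TUBG2 as given above. TUBD1, the centriole delta-tubulin, had 137 to 162 reads in the 2 vehicle libraries that list it and 116 to 133 in TXX-1-10. TUBA3D, TUBA3E, TUBA8, TUBAL3, TUBB1, TUBB2B and TUBB4A had 0 to 34 reads wherever they were listed, and TUBA3C and TUBB8 were in no list used here.

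**Figure D4:**
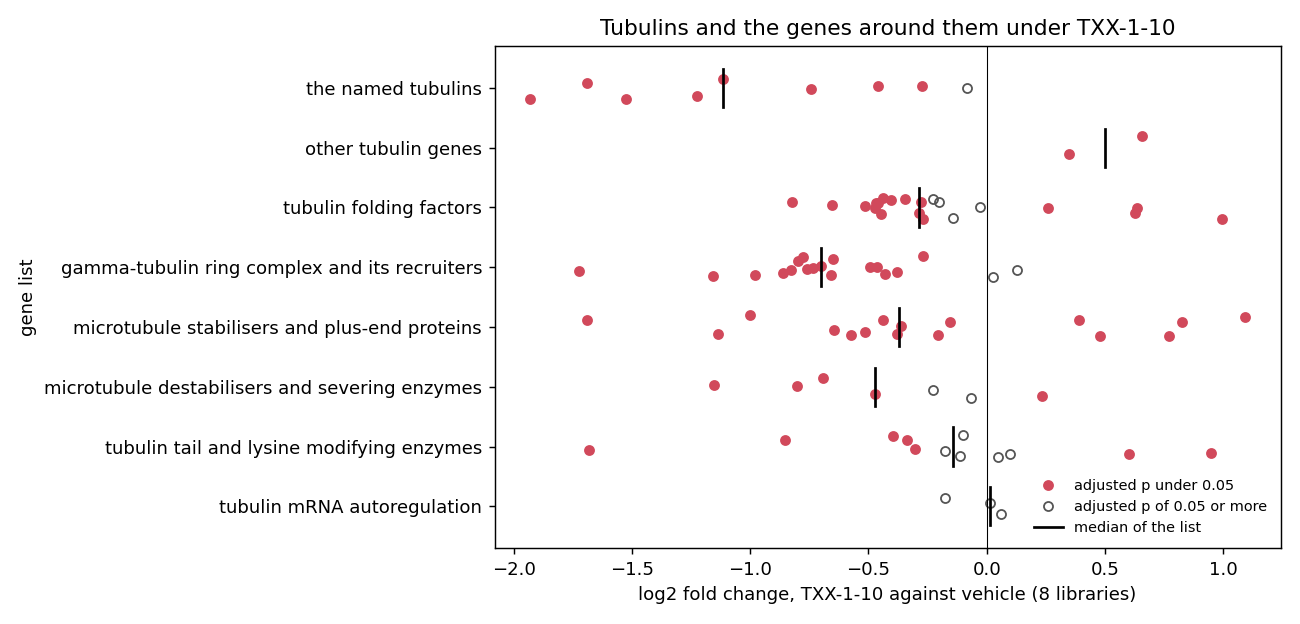
Log2 fold change of TXX-1-10 against vehicle in the 8-library fit for the 9 tested tubulins and for each list of genes that work with tubulin, 1 point per gene, filled where the adjusted p is under 0.05, with the list median as a line. The tubulin median is -1.12 and that of the gamma-tubulin ring complex list is -0.70, while the medians of the tail enzymes and of the sensing pathway are -0.14 and 0.01, beside -0.04 for all genes.

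Genes with the pattern most like that of each tubulin were sought as the highest Pearson correlation of log2 FPKM over the 9 libraries. All points share the 3 treatments, so a high value mainly restates a like difference between them, and no p is given. For TUBA1B these were UHRF1, which maintains DNA methylation at replication (r = 0.9989), the cofactor TBCD (0.9987) and RACGAP1, a cytokinesis regulator (0.9986). For TUBB they were the mitochondrial mRNAs MT-CO1 (0.9999) and MT-ND4 (0.9993) and the replicative helicase subunit MCM3 (0.9989). TUBB4B was closest to UBE2T, a ubiquitin-conjugating enzyme of DNA repair (0.9983), the plus-end protein MAPRE1 and MT-ATP6 (0.9978 each), and TUBA1C to UBE2T (0.9985), MT-ND4 (0.9982) and MT-ATP6 (0.9981). For TUBA4A they were HNRNPM (0.9972), RRP7A (0.997) and SNRPD3 (0.9968), all of RNA processing.

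TUBG1 was closest to TMEM109 (0.9976) and the flap endonuclease FEN1 (0.9973), and TUBB6 to RANGAP1 (0.9944), TMEM109 (0.9913) and CYB5B (0.9912). TUBA1A was closest to KLHDC3 (0.9894), C5orf15 (0.9807) and the G protein subunit GNA11 (0.9784), and its r with TUBA1B was 0.4121. The alpha sum was closest to CTPS1 (0.9993), MCM5 (0.9988) and POFUT1 (0.9986), and the beta sum to MT-ND4 and MT-ATP6 (0.9994 each) and TUBB (0.9992).

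As most of the members fell together, their promoters were searched for 3 motifs on both strands: CCAAT, the box bound by NF-Y, and TTTGAA and TTCGAA, forms of the cell cycle genes homology region. No motif overlaps another. The windows run from 250 bases before to 50 bases after the RefSeq start on GRCh38.p14 that is nearest to the GENCODE start. CCAAT was found in 7 of the 10 windows and in 34.6% of 35116 RefSeq promoters, TTTGAA in 2 (15.2%) and TTCGAA in 1 (1.45%). The 3 windows with none of these letters were those of TUBA1B, which fell most, TUBA4A and TUBB2A. The window of TUBA1A, which did not pass the test with TXX-1-10, held CCAAT on both strands. Whether these motifs have a part in the changes was not tested. The windows of TUBA1B, at chr12:49131346-49131645 on the minus strand, and of TUBB4B, at chr9:137241037-137241336 on the plus strand, are shown to contrast a member with none and one with 3 CCAAT and 1 TTTGAA, with the motifs in capitals.
TUBA1B: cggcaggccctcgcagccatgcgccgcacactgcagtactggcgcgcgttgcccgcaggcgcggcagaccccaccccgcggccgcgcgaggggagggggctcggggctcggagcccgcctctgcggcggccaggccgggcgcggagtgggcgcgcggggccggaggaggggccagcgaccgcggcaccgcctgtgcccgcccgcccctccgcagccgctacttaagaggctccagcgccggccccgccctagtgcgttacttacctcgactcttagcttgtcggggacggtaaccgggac
TUBB4B: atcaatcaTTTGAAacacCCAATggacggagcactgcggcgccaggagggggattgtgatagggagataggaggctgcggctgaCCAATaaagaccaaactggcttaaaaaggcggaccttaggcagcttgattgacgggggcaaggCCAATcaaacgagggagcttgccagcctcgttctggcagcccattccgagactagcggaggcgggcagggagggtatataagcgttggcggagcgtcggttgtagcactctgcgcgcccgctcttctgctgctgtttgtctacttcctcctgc
In TUBB4B the CCAAT boxes began at positions -232, -166 and -103 relative to the start site.

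The measured genes share sequence with others, which bears on how reads could be assigned. Of the 50-base windows of each main transcript, 37.3% were found in no other gene for TUBA1B, 58.9% for TUBA1A, 74.9% for TUBA1C, 81.8% for TUBB, 90.1% for TUBB4B, 94.7% for TUBA4A and 99.0% for TUBB6. TUBA1A shared 32.6% of its windows with TUBA1B. The study's methods used only uniquely mapped reads, but whether the deposited counts were made in that way was not stated. TUBBP1, a processed pseudogene that holds 16.1% of the windows of TUBB, had 120 reads in vehicle 1 and 3, 99 and 132 in rimonabant 2 and 3, and 49, 41 and 41 in TXX-1-10.

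Several members overlap genes on the opposite strand, and whether counting used strand was not stated. TUBA1B shares 36.6% of its exonic bases with the antisense gene AC011603.2, which had 3 to 5 reads in the 4 libraries that list it, and TUBA1A shares 14.3% with TUBA1C. TUBA4A shares 627 bases with STK16, which had 511 to 567 reads in vehicle and 698 to 827 in TXX-1-10, the opposite order to TUBA4A. TUBB6 shares 837 bases with AFG3L2, at 993 to 1082 reads in vehicle and 980 to 1101 in TXX-1-10. The part of these overlaps in the tubulin values was not tested.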

How the data were processed

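RNA from 9 MDA-MB-231 libraries (3 each of vehicle, rimonabant and TXX-1-10) was analysed from per-gene lists. The authors deposited a whole-number count per gene without normalization, and beside it the authors deposited FPKM, the count divided by gene model length and by a library total. The submitters' processing notes name HISAT2 2.0.5 and featureCounts 1.5.0-p3. Library preparation used oligo(dT) selection, by the study's methods. The genome build is not given in the sources used here, but gene coordinates match GENCODE release 29 (GRCh38). The lists end partway as used here, and 1 incomplete last line was dropped.

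The library size was the total implied by each gene's FPKM, length and count. Counts were tested with edgeR 4.0.16 in R 4.3.3 (quasi-likelihood, 1 fit over all groups, Benjamini-Hochberg adjustment over all genes of the fit) in the 4237 genes listed in all 9 libraries with a mean FPKM of at least 1. A second fit of 8 libraries, without rimonabant 1, covered 9370 genes and gave TUBB2A and the lists of partner genes. Standard errors are approximate, derived from the test statistic. Sums and shares are descriptive. Counting noise shrinks with depth. The library totals were not alike, since every TXX-1-10 total was above every vehicle total. With these totals 1858 genes were lower and 1294 higher with TXX-1-10 against vehicle in the 9-library fit. TMM scaling gave 1568 lower and 1568 higher. Replicates differed by more than sampling noise (chi-square per degree of freedom 2.29 to 6.75, and 24.3 to 42.1 in pairs with rimonabant 1 or TXX-1-10 3).

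The members and the lists were chosen with earlier results of these data known. All 10 members are named. Of each list the counts, up to 4 genes with the largest absolute change with TXX-1-10 in the 8-library fit and all members of a list of 3 are named, and for each member and sum the 3 most alike genes. Some items that the rule names are not reported here. TUBBP1, SPAST, STK16, AFG3L2, AC011603.2, AC092143.1 and, of the other tubulins, those not tested were named after their values were seen.

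Alternatives were TMM, DESeq2 1.42.0, limma 3.58.1 on log2(FPKM + 1) and log2(FPKM + 0.1), no filter and a mean FPKM of at least 5, the replicate number as a block, each library left out, rimonabant 1 and TXX-1-10 3 left out together, a gene length correction (lowess, span 0.3) with and without the block, and shares from counts without division by gene length. The fits were tested on simulated counts with 200 genes changed 3-fold, and all 200 were recovered with 0 false calls in the 9-library fit of 4237 genes. The simulated counts had the same spread for all genes and no length trend, and a call also needed the fold threshold. The simulation therefore does not bear on calls at any fold size or on libraries like rimonabant 1 and TXX-1-10 3. Promoters are from RefSeq and coding sequence from GENCODE, and all 10 members matched both. Python 3.11.15 (numpy 2.4.6, pandas 2.3.3) was used for tables and matplotlib 3.10.9 for plots.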

Additional observations from a re-analysis of the deposited data

How the results depend on the processing

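Of 510 tubulin log2 fold changes under 19 alternatives, 488 kept their direction and their side of an adjusted p of 0.05. With TXX-1-10 against vehicle the 5 changed tubulins stayed 5 under every alternative run, and 7 to 9 were lower at any fold size. TUBA1A crossed 0 in that comparison, at 0.0147 with TMM, 0.0164 with DESeq2, 0.0216 with the gene length correction and 0.0217 with that and the replicate block, none past the threshold. DESeq2 scaling moved the median of all genes by 0.10, from -0.09 to 0.01.

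With rimonabant against vehicle, 2 tubulins were lower. This count was 5 without rimonabant 1 and TXX-1-10 3 together, where the lower genes among all tested also went from 1070 to 1609, and 1 to 3 on leaving out 1 library. The count of higher tubulins was 1 to 2 on leaving out 1 library. No source said that the replicate numbers pair the samples. Same-number deviations correlated from -0.789 to 0.8, but they include the length trend of rimonabant 1 and TXX-1-10 3, so they cannot decide on pairing. With the replicate block 1 tubulin was lower, since TUBB reached an edgeR adjusted p of 0.06989 at -0.18, and no other tubulin call changed. The cause of these changes was not tested.

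From counts without division by gene length, TUBA1B was 58.8%, 51.9% and 43.5% of the alpha sum in vehicle, rimonabant and TXX-1-10, TUBA1A was 3.43%, 5.73% and 9.09%, TUBB was 62.7%, 60.1% and 51.5% of the beta sum, and TUBB6 was 7.81%, 9.01% and 15.1%, in the same order of treatments as with FPKM. Of 756 list counts under alternatives, 690 stayed within 1.5 times. With TUBB3 at 8 to 30 reads, depth allowed no comparison.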
